A study of Danio rerio with 8 samples.

Results

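The 7 genes described here are immediate early and stress response genes: egr1, fosab, jun, junba, atf3, btg2 and ier2b. They were taken from a list of Ensembl IDs with no measured value in the rule, but earlier results of these data were known when they were chosen. All 7 had a row among the 37287 features of the series. Their levels come from patch-seq, in which a neuron is collected with a pipette for sequencing of its amplified RNA. The 8 libraries (M1, M2, M5, M6 and M9, then M11, M16 and M17) are labelled as glycinergic neurons and form 1 group. The methods call the assay single-cell sequencing, but neither they nor the labels say how many fish the cells came from, so the spread between libraries may be that of cells of 1 fish or of several. The fish were larvae of 12 to 14 days carrying Tg(Glyt2:GFP), written Tg (gly2:GFP) in the labels, a line that marks glycinergic cells with GFP, and their CaD neurons were found by retrograde labeling from the spinal cord with a dextran dye. The methods describe this tracing for the preparation used in recording and imaging, with an injection under anesthesia and a night in the dark for the dye to travel. Deep anesthesia, evisceration and opening of the skull followed there. The section on sequencing does not repeat these steps, so it is not stated which of them these fish underwent. Its cells were collected with a glass pipette. No library of undisturbed or differently treated cells was analysed here, so a level can be compared between cells but not with a resting state.

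Immediate early genes are transcribed within minutes of a stimulus without new protein synthesis, through factors such as the serum response factor and CREB that are already present in the cell. In neurons they are widely used as a sign of recent activity, and in many tissues they also respond to injury and to the isolation of cells. Fos and Jun proteins pair through leucine zippers to form the AP-1 transcription factor.

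Library depth and identity bear on every value below. The reads counted on features, recovered from the FPKM (fragments per kilobase of gene length, scaled to the fragments mapped in the library), were 9861756 to 13761924 in 7 libraries and 47723986 in M1. The reads of M1 were compared with those of M11, M16 and M17 added together. Of the 17838 features with 10 or more reads in those 3, M1 held at least their sum at 96.6%. It held exactly their sum at 43.7%. M1 therefore cannot be taken as independent of these libraries, and results are also given without M1. The pan-neuronal marker ELAVL3, an RNA-binding protein of neurons, was present in all 8 libraries at 115 to 283 FPKM. Not every feature of the neuron list was. One feature named SNAP25 (ENSDARG00000058117) had 0.0878 to 0.199 FPKM in M2, M5, M9 and M17, but the other (ENSDARG00000020609) had 405 to 1329 FPKM over all 8 libraries. SYT1 had 0.968 FPKM in M16 and 0.927 in M17. SLC6A5, the glycine transporter after which the GFP line is named, was between 0 and 1.22 FPKM, so the mRNA of this marker did not bear out the glycinergic label. The paper, in contrast, reports glycinergic markers in CaD neurons from its patch-seq. It also chose the cells by GFP and found that strychnine blocked the inhibition of motoneurons by steering CaD neurons. The myelin gene mbpa ran from 488 FPKM in M5 to 36649 FPKM in M1.

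The AP-1 and ATF genes come first. fosab (ENSDARG00000031683), a Fos family subunit of AP-1, had 875 FPKM in M11, 405 in M6, 331 in M2 and 195 in M16. It had 59.9 FPKM in M5, 23.1 in M9 and 9.80 in M17, with 326 in M1. The 4 higher libraries and the 3 lower ones were 3.26-fold apart at their nearest values. By its level fosab was at rank 50 of all features in M11 and at rank 2084 in M17. jun (ENSDARG00000043531), the Jun subunit of AP-1, had 235 FPKM in M2, 193 in M6, 130 in M11 and 74.4 in M16. It had 29.1 FPKM in M5 and 27.4 in M17, whereas M9 held a single read, or 0.104 FPKM (exact Poisson 95% interval 0.00262 to 0.577), and M1 had 62.7. Such intervals leave out all but counting error, as reads copied by amplification are not separate molecules.

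junba (ENSDARG00000074378), a Jun family subunit, had 217 FPKM in M6, 170.001 in M11, 143 in M2 and 115 in M16. In contrast to the other genes, it stayed close to these values in M17, at 79.1 FPKM, with 15.4 in M5, 0.326 in M9 (4 reads) and 101 in M1. By its place within each library junba was at rank 276 in M17 and at ranks 293 to 392 in M2, M6, M11 and M16, although M17 had the fewest features with an FPKM of at least 1 (7224). atf3 (ENSDARG00000007823), a leucine zipper factor of the ATF/CREB family known for its induction by stress and nerve injury, had 108 FPKM in M2, 95.5 in M6, 59.97 in M11 and 17.8 in M16. It had 14.2 FPKM in M5, 2.72 in M17 and 0.0367 in M9 (1 read; exact Poisson 95% interval 0.000930 to 0.205), with 38.5 in M1. M16 and M5 were only 1.25-fold apart for this gene. Across the 7 libraries without M1, atf3 was 2941-fold higher in M2 than in M9, with a counting interval of 527 to 116175 that reflects the single read in M9.

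The other 3 genes also had M2, M6, M11 and M16 above M5, M9 and M17. egr1 (ENSDARG00000037421), a zinc finger transcription factor of early responses, had 90.6 FPKM in M11, 82.2 in M16, 62.3 in M2 and 36.9 in M6. Its values of 9.15 in M17, 7.05 in M5 and 5.97 in M9 rested on 190 to 330 reads, and M1 had 44.6. With 15.2-fold between M11 and M9, egr1 had the smallest range of the 7 genes. btg2 (ENSDARG00000020298), an antiproliferative cofactor that acts in mRNA deadenylation in mammals, had 137 FPKM in M11, 34.5 in M16, 32.9 in M2 and 25.8 in M6. It had 5.23 FPKM in M5, 4.28 in M17 and 0.344 in M9 (10 reads), with 46.6 in M1. M11 stood well above every other library for btg2. ier2b (ENSDARG00000086881), a nuclear protein of the immediate early response, had 98.9 FPKM in M11, 59.9 in M6, 52.4 in M16 and 49.2 in M2. It had 10.8 FPKM in M5, 7.23 in M9 and 0.467 in M17 (6 reads), with 41.4 in M1.

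**Figure D1:**
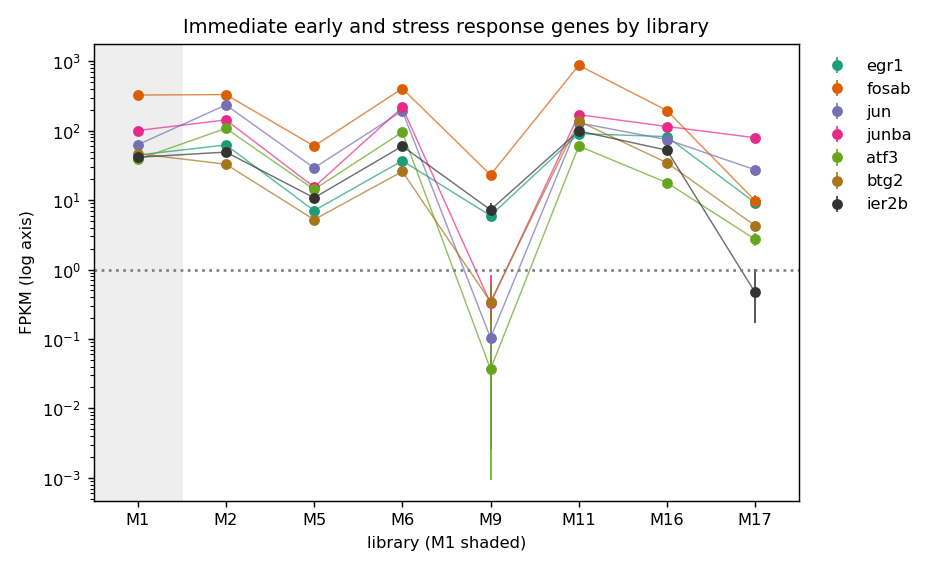
FPKM of the 7 genes (y axis, logarithmic) in each library (x axis; libraries have no order, and lines only join the values of 1 gene). Bars are exact Poisson 95% intervals of the recovered reads, the dotted line is an FPKM of 1 and M1 is shaded; M2, M6, M11 and M16 are above M5, M9 and M17 for every gene, and 4 genes fall below 0.35 FPKM in M9.

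Over the 8 libraries the mean level was 278 ± 285 FPKM for fosab, 105.0 ± 73.6 for junba, 93.8 ± 84.2 for jun, 42.4 ± 33.9 for egr1, 42.1 ± 41.8 for atf3, 40.02 ± 32.9 for ier2b and 35.8 ± 44.1 for btg2 (SD, n = 8). M1 is not an independent library among these. Without M1 the means were 271 ± 307 FPKM for fosab, 106 ± 79.5 for junba, 98.2 ± 89.9 for jun and 42.04 ± 36.6 for egr1 (SD, n = 7). For atf3, ier2b and btg2 they were 42.6 ± 45.1, 39.8 ± 35.6 and 34.3 ± 47.4 FPKM. FPKM are per length, so these levels can be set beside each other. By the median over the 7 libraries without M1 the order was fosab (195 FPKM), junba (115), jun (74.4), ier2b (49.2), egr1 (36.9), btg2 (25.8) and atf3 (17.8). Each step in this order was smaller than the larger SD of the 2 genes it separates (36.6 to 307 FPKM, n = 7), an SD that includes the variation both genes share across libraries. Within libraries, fosab was above junba in 6 of 7 and egr1 above btg2 in 6 of 7. junba was above jun in 5 of 7 and jun above ier2b in 6 of 7, while ier2b was above egr1 and btg2 above atf3 in only 4 of 7 each. Summed over the 7 genes, the level was 1561 FPKM in M11, 1032 in M6, 961 in M2, 660 in M1, 571 in M16, 142 in M5, 133 in M17 and 37.1 in M9. The sum therefore differed 42.1-fold between M11 and M9, and, as a ratio, the gap between M16 and M5 was the widest between neighbours in the order.

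An FPKM of at least 1 in all 8 libraries was reached by 2 of the 7 genes, egr1 and fosab. Of all 37287 features 3743 reached it (10.0%), but that total includes features of very low level. All 3743 lie among the 14410 whose level averaged 1 FPKM or higher without M1, as do the 7 genes. Set beside 3743 of 14410, the 2 of 7 genes do not stand out. Without M1, again 2 of the 7 genes reached an FPKM of 1 in every library. All 7 genes reached this limit in M1, M2, M5, M6, M11 and M16, 6 in M17 and 3 in M9. In M17 the gene below it was ier2b. In M9, egr1, fosab and ier2b were above it with 190, 264 and 82 reads, while jun and atf3 had 1 read each, junba had 4 and btg2 had 10. In M9, 3 reads of jun would be 0.311 FPKM, far below the 29.1 FPKM of M5 and the 27.4 FPKM of M17. Over all features, 10971 reached an FPKM of 1 in M9, 11636 in M5 and 7224 in M17, and 13643 did so in M6, 13335 in M11, 9754 in M16 and 9637 in M2. The part of detection in the low values of M9 was not tested.

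For each of the 7 genes the 4 highest of the 7 libraries without M1 were the same: M2, M6, M11 and M16. This set of libraries was noticed in the values. Where the mean FPKM over these libraries was 1 or more, 4.19% of features had those 4 above M5, M9 and M17 (604 of 14410), and all 7 genes belonged to that filtered set. Within the 4 the order was not shared. M11 was highest for egr1, fosab, btg2 and ier2b, M2 was highest for jun and atf3, and M6 for junba. Likewise, the lowest library was M9 for egr1, jun, junba, atf3 and btg2, and M17 for fosab and ier2b.

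The make-up of the summed level also differed between cells. fosab contributed 34.1% to 62.2% of the summed FPKM in every library except M17, where it gave 7.37% and junba gave 59.5%. In M9 the sum was made almost wholly of fosab (62.2%), ier2b (19.5%) and egr1 (16.1%), with 0.881% of junba and 0.280% of jun. In the remaining 6 libraries junba gave 10.9% to 21.01% and jun 8.30% to 24.4%. M5, with a sum close to that of M17, had shares of egr1, fosab, jun, atf3, btg2 and ier2b within the range of M2, M6, M11 and M16, and its share of junba was 10.9%, as in M11. In M17 ier2b gave 0.351%.

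**Figure D2:**
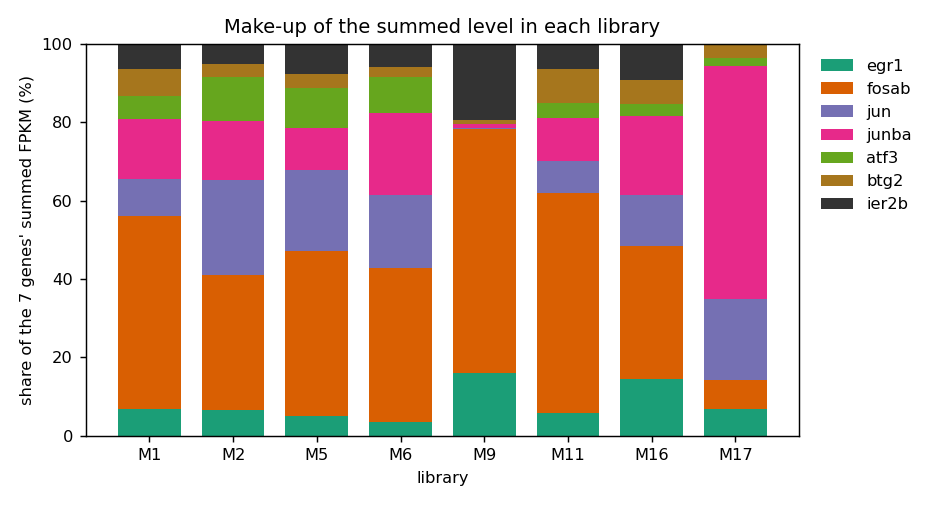
Share of each gene in the summed FPKM of the 7 genes (y axis, %) in each library (x axis). Bars add up to 100%; fosab is the largest part of every bar but that of M17, where junba takes 59.5%.

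The 7 genes varied together across the 7 libraries without M1. The Spearman correlation of their FPKM had a median of 0.82 over the 21 pairs of genes and ranged from 0.68 to 1. As Pearson's r of log2(FPKM + 1) the median was 0.84, with a range of 0.48 for junba and ier2b to 0.97 for fosab and ier2b. Of the 21 pairs, 19 had a Spearman correlation of at least 0.7, a value reached by 9.94% of all pairs among the 14410 features, and the median over those pairs was 0.144. The 14410 features include those with a mean of only 1 FPKM, whereas the lowest mean of the 7 genes was 34.3 FPKM (btg2). No comparison with features of like level was made. These correlations are descriptions over n = 7 libraries, and the values of each library share its preparation and depth. jun and atf3 ranked the 7 libraries in the same order (Spearman 1), and the orders of egr1 and btg2 and of fosab and ier2b differed least after that (0.96 each). The 2 pairs under 0.7 were egr1 with jun and egr1 with atf3, at 0.68 each.

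**Figure D3:**
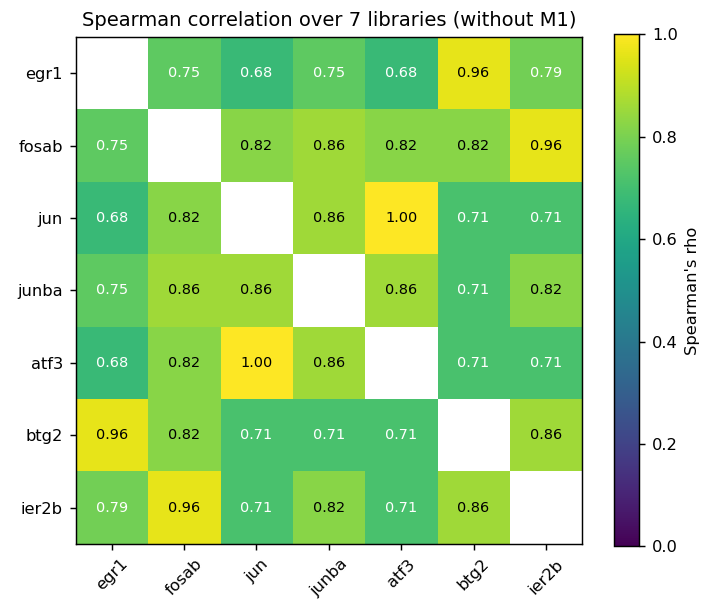
Spearman's rho (color and number) between each pair of the 7 genes over the 7 libraries without M1. All 21 values are positive, from 0.68 to 1, with the highest for jun and atf3.

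In M1 the genes had lower levels than M11, M16 and M17 pooled by their reads, except atf3. egr1, for example, had 6717 reads in M1 and 6549 in the 3 libraries together, so that 2.50% of the reads in M1 lay beyond their sum. The share beyond the sum was 3.85% for btg2, 9.63% for ier2b, 9.68% for jun, 12.3% for junba and 15.01% for fosab, but 47.0% for atf3. Over all counted reads of M1 it was 28.6%. For 6 of the 7 genes the reads of M1 were thus closer to the sum of the 3 libraries than over all features.

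Other properties of the libraries moved with the summed level of the 7 genes to different degrees over the 7 libraries without M1. Counted reads had a Spearman correlation of 0.64 with the summed FPKM and a Pearson's r of 0.71 on the log2 scale, or 0.95 without the 2 libraries farthest from the median depth. The number of features with an FPKM of at least 1 gave 0.54 and 0.38, and the share of reads on the single most abundant feature gave -0.43 and -0.22. With the 2 libraries farthest from the median of each measure left out, their Pearson's r was 0.062 and -0.11. Such values rest on very few libraries. The part of depth in the result was not tested.

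Markers of astroglia varied with these genes more than those of other cell types. The summed FPKM of 11 features of a radial glia and astroglia list was 11536 in M11, 3176 in M6, 1277 in M16, 667 in M2, 475 in M5, 214 in M9 and 209 in M17, with 3679 in M1. Its Spearman correlation with the summed level of the 7 genes was 0.93 over 7 libraries. Of the 11 features, 7 had a mean FPKM of at least 1 without M1. Among these 7, 4 had M2, M6, M11 and M16 all above the other 3 libraries: GFAP, SLC1A2 (ENSDARG00000102453) and both features named GLUL. The share was 4.19% over all 14410 features with that mean. AQP4 was listed at 0 in every library. Most of the sum came from FABP7 (ENSDARG00000007697), a fatty acid binding protein of radial glia, which had 8963 FPKM in M11, 1975 in M6, 569 in M16 and 288 in M2, and 352 in M5, 136 in M17 and 94.4 in M9, so that M2 was below M5. S100B, a calcium binding protein of glia, did not have that split either, with 101 FPKM in M6 and 58.3 in M16, against 109.7 in M9. M2 and M5 had closer astroglial sums (667 and 475 FPKM) than sums of the 7 genes (961 and 142 FPKM). Oligodendrocyte markers gave a correlation of 0.32 and ranged from 517 FPKM in M5 to 37398 in M2, with 37724 in M1. Neuron markers gave 0.43 and ranged from 873 in M17 to 2826 in M6, and microglia and macrophage markers gave 0.54 and ranged from 2.45 in M9 to 303 in M16. The list of glycinergic and GABAergic genes gave 0.79, with 159 FPKM in M11, 44.8 in M6 and 40.1 in M16. It had only 2.04 FPKM in M2, near the 1.81 in M9 and below the 8.45 in M5 and 6.66 in M17. Most of the sum in M5 and M9 was SLC6A9, with 7.42 and 1.44 FPKM, against 0.385 in M2 and 0.108 in M17. The place of M2 below M5 therefore rests on this feature, which also had 19.9 FPKM in M16. In M11, GAD1 (ENSDARG00000027419) and GAD2, the enzymes of GABA synthesis, had 54.2 and 56.7 FPKM. The endothelial list summed to at most 6.999 FPKM and gave 0.31, and the erythrocyte list to at most 2.30 FPKM and gave -0.25. The part of RNA from other cells in the levels of the 7 genes was not tested.

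**Figure D4:**
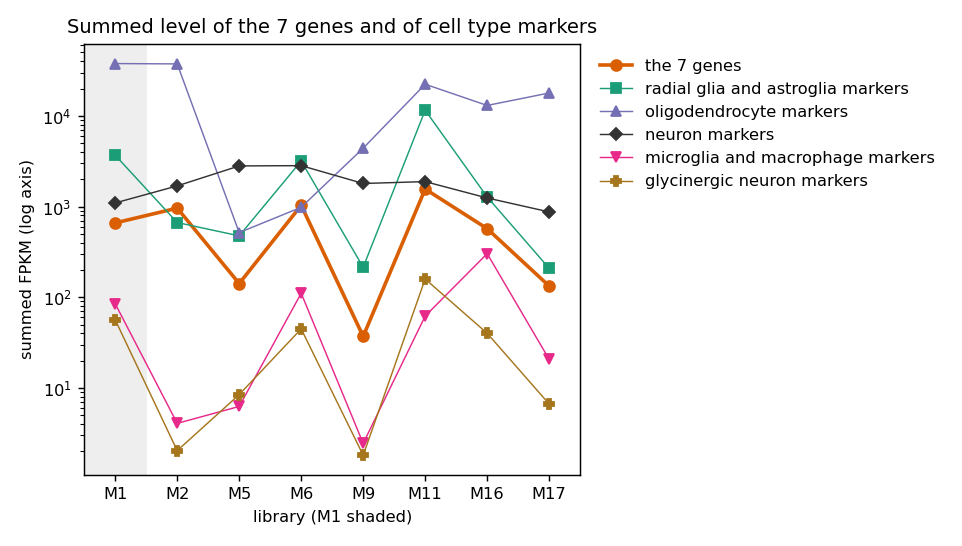
Summed FPKM (y axis, logarithmic) of the 7 genes and of 5 lists of cell type markers in each library (x axis, M1 shaded; lines only join values of 1 list). The sum of the 7 genes is highest in M11 and lowest in M9. The same holds for the list labelled glycinergic neuron, which includes GABA synthesis genes and is also low in M2 (2.04 FPKM). The astroglia sum is also highest in M11 and is near 210 FPKM in both M9 and M17.

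Related genes were then set beside the 7, from lists chosen by function. Each list is described by how many features had M2, M6, M11 and M16 all above the other 3 libraries. This held for 1.78% of all 37287 features and for 4.19% of the 14410 with a mean FPKM of at least 1. Most listed features passed that mean, so the second share is the nearer one. Among other AP-1 and EGR genes this was so for 5 of 11 features, 8 of which passed the mean FPKM of 1. A second feature named JUNB (ENSDARG00000104773), a paralog of junba, had 267 FPKM in M11, 205 in M6, 112 in M2 and 77.2 in M16, and between 14.6 and 20.6 FPKM in M5, M9 and M17. FOSB, a Fos family subunit, had 121 FPKM in M16 and 66.6 in M2 but also 32.6 in M17. egr4, a zinc finger factor related to egr1, did not have that order, with 85.8 FPKM in M11 and 79.0 in M6, 27.5 in M9 and 15.8 in M2. The split of 4 libraries above 3 was thus found for both JUNB features, but only junba had a level in M17 near that in M16.

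Among other immediate early genes the order held for 14 of 30 features, 24 of which passed it. ier2a, the paralog of ier2b, had 437 FPKM in M11 and 89.7 to 101 in M2, M6 and M16, but 73.0 in M9, 9.98 in M5 and 0.818 in M17. ier2b was likewise lowest in M17, but its 7.23 FPKM in M9 were below its value in M5. mcl1a, an anti-apoptotic BCL2 family gene, had 48.5 to 80.4 FPKM in the 4 libraries, and 11.8 in M9, 6.92 in M5 and 0.124 in M17. BTG1, related to btg2, had 43.4 to 52.0 FPKM in the 4 libraries, with 18.7 in M17, 16.7 in M5 and 1.09 in M9.

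Stress genes of other kinds were counted in the same way. For heat shock and unfolded protein response genes the order held for 1 of 19 features, 18 of which passed the mean FPKM of 1. For DNA damage and oxidative stress genes it held for 5 of 17, 13 of which passed. The chaperone gene HSP90AB1 had 478 FPKM in M9 and 749 in M5, the lowest and highest of the 7 libraries, and HSPA8 (ENSDARG00000068992), a constitutive chaperone, had 205 FPKM in M17 and 861 in M6. atf4a, a translationally controlled factor of the integrated stress response, had 98.7 FPKM in M11 but 89.5 in M5, which was low for the 7 genes. CCNG1, a target of p53 in mammals, was between 322 FPKM in M11 and 974 in M2. GADD45B, a growth arrest and DNA damage gene, is the name of a pair of features. The one with the higher level (ENSDARG00000027744) had 250 FPKM in M6 and 1.17 in M9 but 82.9 in M5, close to the 83.1 in M16, and the other (ENSDARG00000013576) had 23.3 to 92.7 FPKM in the 4 libraries and at most 4.57 in the others.

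Kinases and factors upstream of immediate early genes had the 4 libraries highest in 2 of 18 features, 14 of which passed the mean FPKM of 1. MAPK8 (ENSDARG00000009870), the kinase JNK that phosphorylates Jun, had 72.4 FPKM in M11, 72.0 in M6, 55.9 in M2 and 22.2 in M16, and 67.0 in M5, 37.3 in M9 and 26.3 in M17. MAPK3, a kinase of the ERK pathway, was between 15.3 and 40.2 FPKM in all 7. The mRNA of both was detected in M9, where jun had 1 read. Kinase activity was not measured, and a link between these levels was not tested. Likeness to the mean standardized profile of the 7 genes, as Pearson's r of log2(FPKM + 1) over 7 libraries, had a median of 0.82 for other AP-1 and EGR genes, 0.77 for other immediate early genes, 0.61 for DNA damage genes, 0.54 for heat shock genes and 0.15 for upstream factors, counting those that passed the mean FPKM of 1. The same median was 0.21 over all 14410 such features. Among the cell type lists it was 0.80 for radial glia and astroglia, above that of other immediate early genes, and 0.61 for the glycinergic list. It was 0.31 for oligodendrocyte, 0.29 for microglia and macrophage and 0.21 for neuron markers. A high likeness was thus not particular to early response genes.

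**Figure D5:**
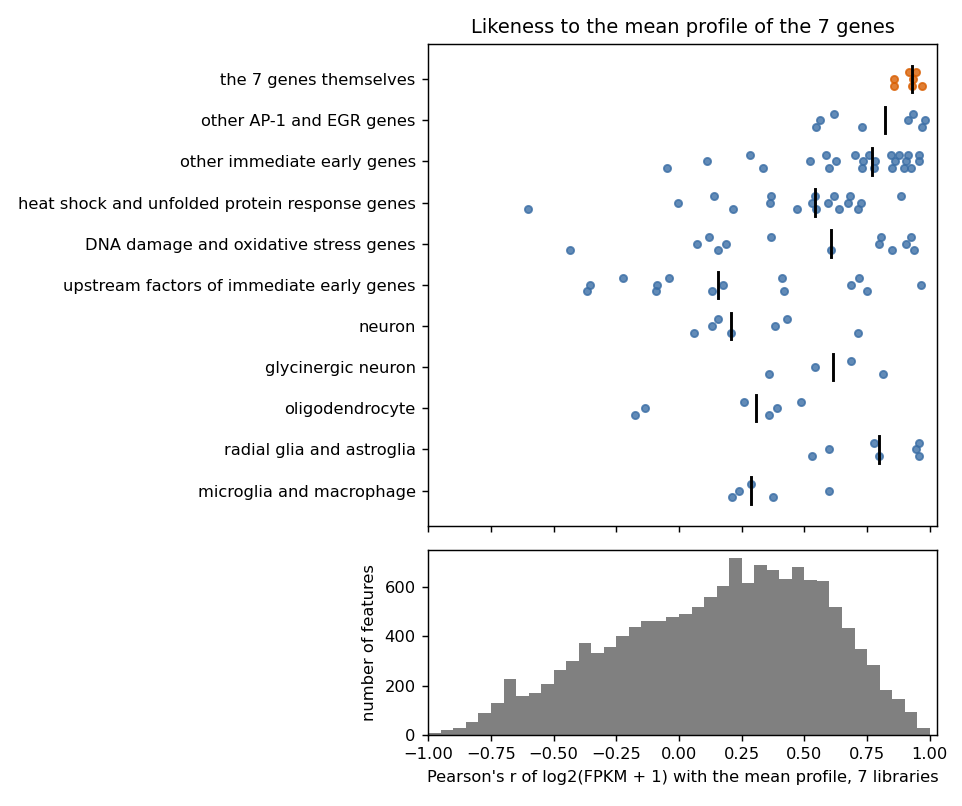
Pearson's r (x axis) between the log2(FPKM + 1) of single features and the mean profile of the 7 genes over 7 libraries. In the upper panel each point is a feature that passed the mean FPKM of 1 and black bars are list medians (the 7 genes, in orange, make up the profile and are 0.86 or higher for that reason); the lower panel counts all 14410 features, whose median is 0.21.

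The 5 features most like the mean profile were sought among 5274 that reached an FPKM of 1 in 6 or more of the 7 libraries. They were JDP2 (r = 0.99), a repressor that dimerizes with Jun, KLF11 (0.97), a zinc finger factor, PPP1R10 (0.97), a nuclear regulator of protein phosphatase 1, JUND (0.97), a Jun family subunit, and GMDS (0.97), an enzyme of GDP-fucose synthesis. JDP2 had 285 FPKM in M11, 108 in M6, 72.2 in M2 and 54.5 in M16, against 8.92 in M5, 2.63 in M17 and 0.398 in M9. GMDS, in contrast, was only between 6.54 and 19.5 FPKM. Of the 5274 features, 52 reached an r of 0.9.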

How the data were processed

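RNA of CaD neurons was read by the authors in pairs, each of 150 bp. The processing notes of the submitters name HISAT2 2.0.4 and HTSeq 0.9.1, the methods text names HTSeq 0.6.0, and the genome build is not given in the sources used here. The authors deposited FPKM, computed from gene length and reads per gene, and all 8 columns were used.

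Library totals, feature lengths and whole reads were recovered from ratios of the FPKM and tested on simulated data of 6000 features, where 8 of 8 totals and all reads of 99.7% of features detected in 5 or more libraries came back. Alternatives were other FPKM limits, pseudocounts and rescalings, and leaving out libraries. Recovered reads added up to 99.87% to 99.95% of the totals. With 1 group there was no test between conditions, and correlations are given without p-values.

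The 7 genes, the lists and the set of libraries set apart were chosen with earlier results of these data known. Named genes were the 7, the 3 of each pathway list with the highest median FPKM and the 5 features most like the mean profile; 1 gene that the rule names is not reported here. Names came from a table that paired 29178 of 31901 Ensembl IDs with symbols, many in human spelling and shared by paralogs; it gives FOS, JUN, JUNB, ATF3 and BTG2 for 5 of the 7 genes, whose zebrafish spelling is that of the list. List symbols absent from it were, where possible, matched without their final paralog letter, so both paralogs entered. Symbols with no match were left out of the lists. These were 2 of 31 other immediate early, 2 of 21 heat shock and 1 of 16 DNA damage symbols. Among cell type markers they were 2 of 9 microglia, 1 of 5 endothelial and 3 of 7 erythrocyte symbols, so those sums cover only part of their lists. No coordinates or sequences were used, and a promoter motif search foreseen in the design was not run. Reads shared by paralogs such as junba and the other JUNB feature could not be checked. Scripts ran under Python 3.11.15 with numpy 2.4.6, scipy 1.17.1, pandas 2.3.3 and, for plots, matplotlib 3.10.9.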

Additional observations from a re-analysis of the deposited data

Results flagged for a closer look

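Of 8 measures compared over the 8 libraries (the 7 genes and their sum), 2 had 1 library far from the rest. The limit used stands for about 1 in 20 by chance only for independent values with a normal distribution. Here M1 is not independent of M11, the measures vary together and 1 of them is the sum of the others. The rate by chance is therefore not known for these measures. M11 was above the second highest library by 0.544 of the range of all 8 for fosab and by 0.661 for btg2, both past Dixon's critical value. Without M1 the gap was again 0.544 for fosab, which is not past the critical value for 7 libraries, and 0.75 for btg2, which is. No cause was tested.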

How the results depend on the processing

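Of 37 alternatives, 26 moved a count by less than 1.5 times or a value by less than 1 SD. One of them, leaving out glial marker features and rescaling, takes no glial RNA out of the values of the 7 genes and bears on scaling only. Others of the 26 are medians of single genes, whose SD between libraries was about as large as the mean. The median of fosab went from 260 to 403 on rescaling (SD 285 FPKM), and that of atf3 from 28.1 to 17.8 FPKM without M1 (SD 41.8). For the medians this count therefore says little. The 2 genes that reached an FPKM of 1 in all libraries became 7 with any FPKM above 0, because the limit then admits single reads. The median correlation between the genes, 0.82, was 0.75 with the most abundant feature left out and the rest rescaled, 0.79 over all 8 libraries and 0.75 for egr1 and fosab alone, which reached an FPKM of 1 throughout. Leaving out 1 further library at a time gave 0.71 (without M5) to 0.89 (without M2 or M6). The SD they were set against, over the 7 genes' own medians, was 0.0333. The cause of these moves was not tested. The same 4 libraries stayed highest for all 7 genes under both rescalings, which were chosen after seeing the data, although egr1 was then highest in M16 rather than M11 with the most abundant feature left out. The fold between libraries for jun and atf3 rests on 1 read each in M9. Counts this low limit what can be said there: 3 reads in M9 are 0.311 FPKM of jun and 0.110 FPKM of atf3. M9 had 10083385 counted reads and M16 had 9861756, with 702 reads of jun and 475 of atf3 in M16. The cause of the low counts in M9 was not tested.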

Other observations

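Genes named here were chosen after their values were seen. NPAS4 (ENSDARG00000055752), a transcription factor that in mammals is induced by neuronal activity and nearly restricted to neurons, had 73.9 FPKM in M11, 49.7 in M2, 12.7 in M6 and 8.09 in M16, against 1.72 in M17, 0.126 in M9 and 0.101 in M5. NR4A1 and NR4A3, orphan nuclear receptors of the early response, had 10.1 to 34.6 and 11.8 to 36.9 FPKM in the same 4 libraries, and at most 0.620 and 3.21 in the other 3. The third gene of that family, NR4A2 (ENSDARG00000044532), did not have this split, with 285 FPKM in M11, 29.6 in M2, 10.7 in M6 and 0.108 in M16, and 19.4 in M9, 14.2 in M5 and 0.310 in M17. DDIT3, a factor of the unfolded protein response, was the single feature of its list with that order, at 39.2 to 152 FPKM in the 4 libraries, with 21.1 in M5, 0.0631 in M17 and 0 in M9.

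M9 and M17 differed in some early genes and not in others. M9 had 73.0 FPKM of ier2a, 27.5 of egr4 and 26.1 of IER5, an early response gene, where M17 had 0.818, 0.314 and 0.944 FPKM. M17 in turn had 32.6 FPKM of FOSB, 18.7 of BTG1 and 3.42 of JUND, where M9 had 7.32, 1.09 and 0.0485 FPKM. Levels were closer for the JUNB feature ENSDARG00000104773 (18.7 FPKM in M9 and 20.6 in M17), KLF6, a zinc finger factor (17.2 and 10.3 FPKM), and egr1 (5.97 and 9.15 FPKM). Each is 1 library, and no cause of this difference was tested.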
